A study of Homo sapiens with 18 samples.

Results

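dCeMM-3 is a compound known as a degrader of cyclin K, and its effect on the transcriptome was measured in KBM7, a near-haploid human chronic myelogenous leukaemia cell line. The comparison set 3 libraries treated with dCeMM-3 at 10 times its EC50 for 5 h against 3 libraries treated with the solvent DMSO for 5 h, 6 of the 18 libraries of the series, and covered all 58051 gene rows of the count tables. The sample titles call the dCeMM-3 libraries Hit2 and the dCeMM-2 libraries Hit1, and the series' design text pairs these titles with the compounds. No genotype or further agent is named for any of these groups. Libraries of dCeMM-2 (10 times EC50, 5 h) and THZ531 (600 nM, 5 h), 3 of each, were used only to show where dCeMM-3 differed. Whether libraries of 1 group stem from independent cultures is not in the labels, so p-values measure only the spread between these libraries, which may be technical.

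Cyclin K is the regulatory partner of the kinases CDK12 and CDK13, which phosphorylate the carboxy-terminal domain of RNA polymerase II and keep the polymerase elongating along genes. dCeMM-2 and dCeMM-3 are known to bring CDK12 with cyclin K to the DDB1 adaptor of the CUL4 ubiquitin ligase, so that cyclin K is ubiquitinated and destroyed by the proteasome, and THZ531 inhibits both kinases covalently. Loss of CDK12 activity is best known for lowering mRNAs of DNA repair genes. The protein is the known target, whereas the tables hold RNA only.

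Gene counts per library ran from 4598576 (DMSO replicate 3) to 16966951 in the 6 libraries. Markers of myeloid leukaemia cells were present in every library, all 12 of them at 1 CPM (counts per 1000000 gene counts) or more. Of 18 markers of other cell types, 7 (among them VWF, CDH5, KRT5, KRT14 and COL3A1) had no read in any of the 6 libraries and 13 stayed under 1 CPM. The summed level of these 18 was 66.5 to 71.7 CPM in DMSO and 142 to 178 CPM with dCeMM-3, and CD3D supplied most of it, with 61.1 to 67.3 CPM in DMSO and 133 to 167 CPM with dCeMM-3.

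Across the transcriptome, dCeMM-3 changed most genes relative to each other, and most genes were lower relative to spiked-in RNA. Libraries were scaled in 2 ways. The TMM scale (trimmed mean of M-values) sets a gene against the bulk of the other genes, and the spike-in scale sets it against the synthetic ERCC and SIRV RNAs added to each sample. Of the 15055 genes that passed the filter on low counts, 5409 (35.9%) were called higher and 6793 (45.1%) lower on the TMM scale, a total of 81.0% (edgeR quasi-likelihood test, Benjamini-Hochberg adjusted p under 0.05). The change was at least 2-fold for 7558 genes (50.2%), 2947 (19.6%) higher and 4611 (30.6%) lower. Per spike-in, 168 genes (1.12%) were called higher and 12608 (83.7%) lower. All 6793 genes that were lower relative to the other genes were also lower per spike-in, whereas 3265 of the 5409 higher genes were lower per spike-in and 1976 did not pass the test there. The 168 genes higher per spike-in were higher on both scales. Both scales rest on the same counts and differ by a shift nearly common to all genes. Agreement between them is therefore not independent support. Over all genes the log2 fold change had a median of -0.15 on the TMM scale, 0.01 with the size factors of DESeq2 and -1.96 on the spike-in scale. With those size factors 49.5% of the calls were higher, against 44.3% with TMM. A fold change below is on the TMM scale unless the spike-in scale is named. Counts of list members below are read against the shares of all genes given here.

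**Figure D1:**
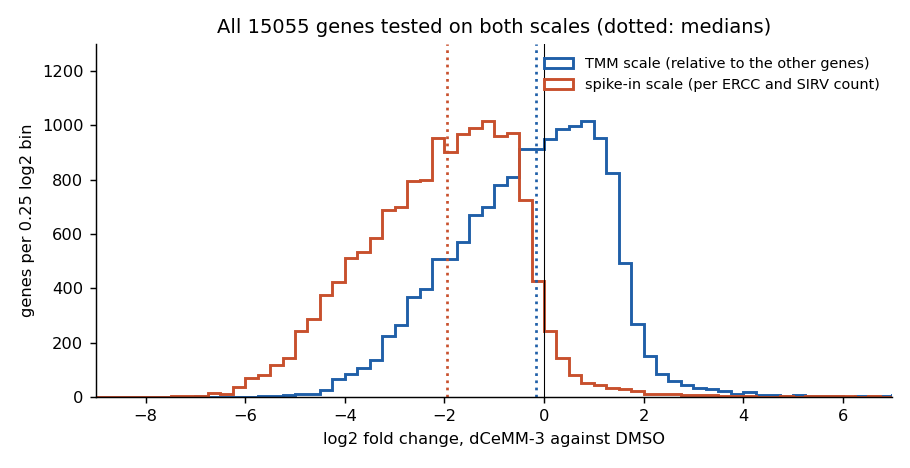
Histogram of the log2 fold change of dCeMM-3 against DMSO for all 15055 genes tested, on the TMM scale (blue) and on the spike-in scale (orange), with the number of genes per bin on the vertical axis. The dotted medians stand at -0.15 and -1.96, and 168 genes were called higher on the spike-in scale.

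The spike-in took 0.202%, 0.167% and 0.168% of the counts in the DMSO libraries and 0.542%, 0.611% and 0.471% in the dCeMM-3 libraries. The groups did not overlap, and the mean ratio was 3.02 (exact two-sided permutation p = 0.1, the smallest that 3 against 3 libraries allow). How much spike-in went in relative to cells or RNA is not in the labels, and poly(A) RNA was enriched after it was added. Fewer cells, less RNA per cell and a smaller poly(A) share of the RNA therefore cannot be told apart.

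The genes of the cyclin K complex itself fell. CCNK, which encodes cyclin K (chromosome 14, 99481169 to 99535044, plus strand, GRCh38), stood at 123, 119 and 126 CPM in the DMSO libraries and at 49.5, 54.2 and 49.2 CPM with dCeMM-3, which was -1.26 on the log2 scale (SE 0.07, edgeR adjusted p = 4.98e-20). CDK12 (chromosome 17, 39461511 to 39564907, plus strand) went from 174, 180 and 182 CPM to 41.7, 38.7 and 48.5 CPM, a log2 fold change of -2.05 (SE 0.07). CDK13 (chromosome 7, 39949646 to 40099580, plus strand) went from 109, 111 and 110 CPM to 19.99, 19.4 and 23.7 CPM, a log2 fold change of -2.38 (SE 0.08). In each of the 3 genes every dCeMM-3 library lay below every DMSO library, as it did on one side or the other for 79.7% of all genes tested. On the spike-in scale the fold changes were -3.09, -3.87 and -4.20.

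Genes of the ligase to which the compound is known to bring cyclin K were mixed on the TMM scale. DDB1, the adaptor, was at 309, 335 and 316 CPM in DMSO and 286, 327 and 289 CPM with dCeMM-3 (log2 fold change -0.09, SE 0.06, adjusted p = 0.187), and the groups overlapped. CUL4B, a scaffold of the ligase, was higher relative to the other genes by 0.68 (SE 0.09) and lower on the spike-in scale, at -1.11. Of 12 genes of the CUL4-DDB1 machinery 3 were higher and 7 lower, and all 12 were lower per spike-in. The lower ones included UBE2G1, a ubiquitin-conjugating enzyme (-2.48), and CAND1, which exchanges substrate receptors (-1.52), and the ubiquitin-like modifier gene NEDD8 was at 1.00 with -0.83 per spike-in. Among 31 proteasome genes 18 were lower, led by PSMD12 at -2.83, and 9 higher, among them PSMD8 at 0.73, while all 31 were lower per spike-in. Both lists are read beside all genes, of which 35.9% were higher, 45.1% lower and 83.7% lower per spike-in.

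**Figure D2:**
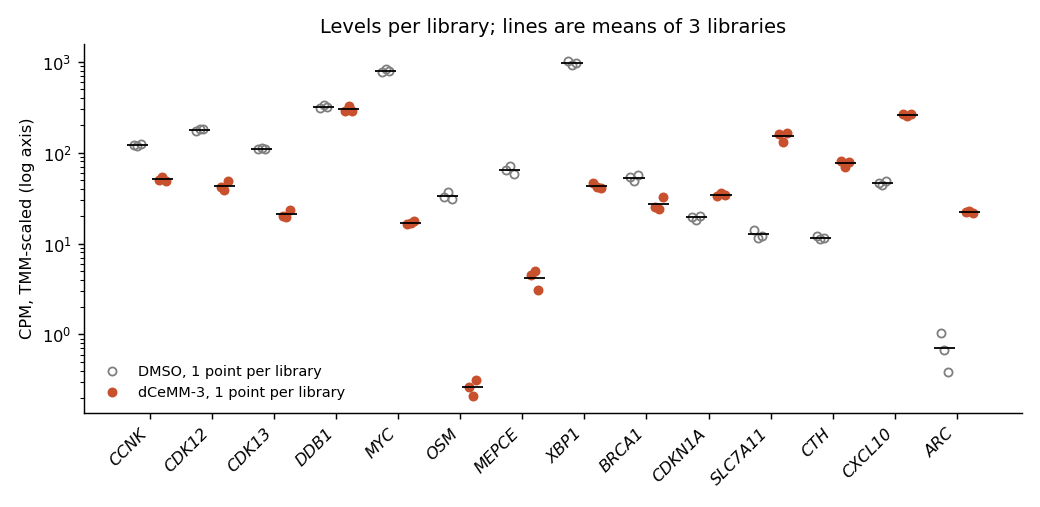
TMM-scaled CPM on a log axis for 14 genes, 1 point per library, with DMSO open and dCeMM-3 filled and a line at each mean of 3 libraries. DDB1 is the only one of the 14 whose groups overlap; MYC, OSM, MEPCE and XBP1 show the widest gaps downwards and SLC7A11, CTH, CXCL10 and ARC the widest gaps upwards.

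The growth gene MYC and the cytokine gene OSM were among the 10 largest falls of protein-coding genes. MYC, a transcription factor that drives growth and has a short-lived mRNA, was at 777, 837 and 791 CPM in DMSO and 16.6, 16.9 and 17.6 CPM with dCeMM-3 (log2 fold change -5.56, SE 0.08, adjusted p = 1.17e-37). OSM encodes oncostatin M, a cytokine known as a target of STAT5 (chromosome 22, 30262829 to 30266840, minus strand). It was at 32.9, 36.8 and 30.7 CPM in DMSO and at 0.263, 0.207 and 0.318 CPM with dCeMM-3, which rests on 4, 2 and 4 counts (log2 fold change -6.94, SE 0.20). Of 12 genes of the MYC and MAX network 10 fell (median -2.03), and MXI1, a MAX partner that opposes MYC, was higher at 1.38 while at -0.39 per spike-in, where it did not pass the test (adjusted p = 0.089). MLX at -2.91 and MNT at -2.77 were the next largest falls.

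BCR-ABL is the fusion kinase of this leukaemia, and STAT5 a transcription factor it activates. Of 18 genes listed for the BCR-ABL and STAT5 axis the mRNAs of 13 fell and 3 were higher, with a median of -1.49 (45.1% of all genes were lower), and all 18 were lower per spike-in. CISH, a feedback inhibitor of cytokine receptors, fell by 3.12 and BCL2L1, which encodes the survival protein BCL-XL, fell by 3.01. CCND2, among the 3 higher genes, was at 0.85 on the TMM scale and at -0.97 per spike-in. Of 13 genes of feedback on the ERK kinases 10 fell (median -1.77). DUSP6, the phosphatase that inactivates ERK (chromosome 12, 89347232 to 89353271, minus strand), was at 148, 145 and 146 CPM in DMSO and 8.75, 10.5 and 11.04 CPM with dCeMM-3 (log2 fold change -3.87, SE 0.09). DUSP5 fell by 4.03 and SPRY2 by 2.97, and ETV4 was at 0.47, with -1.36 per spike-in.

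The 10 largest falls among protein-coding genes of at least 5 CPM in DMSO were P2RY14, OSM, ZNF786, MYC, ZNF57, KLHL26, EFNA4, CCR7, CDX2 and CD69. P2RY14, a purinergic receptor gene (chromosome 3, 151212117 to 151278467, minus strand), had 105, 102 and 27 counts in DMSO and 1, 0 and 0 with dCeMM-3, or 210-fold lower (95% interval of the counts 37.4 to 8339.7, and a fitted log2 fold change of -7.30, or -9.29 without dCeMM-3 replicate 1). ZNF786, which encodes a zinc finger protein, fell by 5.60 and KLHL26, which encodes a kelch protein, by 5.42. The zinc finger gene ZNF57 was at -5.48 (-6.23 without dCeMM-3 replicate 2), the ephrin gene EFNA4 at -5.40 (-6.00 without dCeMM-3 replicate 3), and the chemokine receptor gene CCR7 at -5.18 (-4.47 without dCeMM-3 replicate 1 and -6.26 without replicate 2). These 3 genes, and also ZNF786 and KLHL26, had under 5 counts in every dCeMM-3 library. CDX2, a homeobox factor gene, was at 16.9, 18.9 and 17.6 CPM in DMSO and 0.132, 0.829 and 0.715 CPM with dCeMM-3. The early activation antigen gene CD69 was at 180, 175 and 203 CPM in DMSO and 5.46, 4.25 and 7.63 CPM with dCeMM-3. In all of these the groups were far apart. Of other gene types, the antisense RNA AL034397.3 fell by 3.76, and the lincRNA AC125807.2 fell by 4.25.

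Among protein-coding genes of at least 5 CPM with dCeMM-3, the 10 largest rises that held on both scales were those of ARC, SLC7A11, TSSK6, HIST1H3G, HOXB9, CSKMT, YPEL1, GSDMB, HIST1H4C and HIST3H2BB. ARC, an activity-regulated gene that belongs to the immediate early genes, was at 1.04, 0.678 and 0.383 CPM in DMSO and 22.5, 22.6 and 21.8 CPM with dCeMM-3 (log2 fold change 4.802, SE 0.19, and 3.05 per spike-in). SLC7A11 encodes the cystine-glutamate antiporter that feeds glutathione synthesis (chromosome 4, 138164097 to 138242349, minus strand). It was at 14.2, 11.6 and 12.1 CPM in DMSO and 162, 132 and 164 CPM with dCeMM-3 (log2 fold change 3.59, SE 0.10, adjusted p = 1.40e-28, and 1.80 per spike-in). CTH, the enzyme that makes cysteine from cystathionine (chromosome 1, 70411218 to 70439851, plus strand), was at 12.03, 11.1 and 11.5 CPM in DMSO and 80.5, 70.1 and 79.1 CPM with dCeMM-3 (log2 fold change 2.73, and 0.93 per spike-in). HOXB9, a posterior homeobox gene, was at 2.20, 1.30 and 2.30 CPM in DMSO and 16.8, 16.8 and 14.1 CPM with dCeMM-3 (3.12, and 1.31 per spike-in). TSSK6, a kinase gene, was at 3.49 and at 1.73 per spike-in (there 2.37 without DMSO replicate 2), GSDMB, a gasdermin gene, at 2.89, and HIST3H2BB at 2.84 with 1.01 per spike-in, where it did not pass without DMSO replicate 1 (0.53, adjusted p = 0.223).

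A list of 11 genes of cystine uptake and transsulfuration, put together after the values of SLC7A11 and CTH had been seen, held 7 higher and 4 lower members, and 2 higher and 9 lower per spike-in. The 2 higher on both scales were SLC7A11 and CTH, and GCLC, the enzyme that starts glutathione synthesis, fell by 2.54. SLC7A11 is also a known target of the factors NRF2 and ATF4, so their lists were read beside it. Of 21 genes of the NRF2 response and glutathione 8 were higher and 11 lower (median -0.31), and SLC7A11 was the only one higher per spike-in. NFE2L2, which encodes NRF2, fell by 2.61, and KEAP1, its inhibitor, by 3.70. Of 20 ATF4 target genes 8 were higher and 8 lower (median -0.02), with DDIT4 at -2.80 and TRIB3 at -2.25, and again SLC7A11 alone was higher per spike-in. Both lists lay near the shares of all genes, 35.9% higher and 45.1% lower. Per spike-in only 1.12% of all genes were higher. Whether NRF2 or ATF4 acted on SLC7A11 was not tested.

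Replication-dependent histone genes, whose mRNAs normally end in a stem-loop and not in a poly(A) tail, were counted higher in these poly(A)-enriched libraries. Of 25 listed, 22 passed the filter on low counts, and 19 of these were higher and 0 lower on the TMM scale (median 1.49), and per spike-in 3 were higher and 9 lower (median -0.23). DESeq2 size factors also put 0 histone genes lower. HIST1H3G was at 3.01, 2.30 and 2.87 CPM in DMSO and 28.6, 23.5 and 31.1 CPM with dCeMM-3 (log2 fold change 3.38, and 1.59 per spike-in). HIST1H4C was at 1.97, 1.46 and 1.72 CPM in DMSO and 12.4, 10.3 and 15.02 CPM with dCeMM-3 (2.88, and 1.11 per spike-in). HIST2H2AC was at 2.38, with 0.62 per spike-in (adjusted p = 0.089). Near-identical histone copies can share reads that the counting left out, so values of single histone genes are uncertain.

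Small nuclear RNAs (snRNAs) had the largest ratio to DMSO of the 10 gene types summed. They form the spliceosomes: U1, U2, U4, U5 and U6 build the major one, and U11, U12, U4atac and U6atac the minor one that removes a rare class of introns. The mature forms carry no poly(A) tail, and the Integrator complex cuts the ends of those made by RNA polymerase II. The 3 snRNAs below, chosen after their values had been seen, are shown because they were at or near 0 counts in DMSO, and they are printed 5′ to 3′ in DNA letters from the GENCODE 29 transcripts (GRCh38). Capitals mark ATTTTTG or ATTTTTTG, the form of the Sm protein binding site in these RNAs.
RNU4ATAC: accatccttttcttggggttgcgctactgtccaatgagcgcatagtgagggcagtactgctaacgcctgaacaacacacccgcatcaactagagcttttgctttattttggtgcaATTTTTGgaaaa
RNU11: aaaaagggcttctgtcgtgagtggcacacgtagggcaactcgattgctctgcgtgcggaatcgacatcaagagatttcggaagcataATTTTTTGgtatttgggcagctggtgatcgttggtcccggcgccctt
RNU4-2: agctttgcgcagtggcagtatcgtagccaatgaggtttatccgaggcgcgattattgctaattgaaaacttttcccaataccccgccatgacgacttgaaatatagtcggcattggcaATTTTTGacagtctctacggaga
They lie on chromosome 2 (121530881 to 121531007), chromosome 1 (28648600 to 28648733) and chromosome 12 (120291763 to 120291903, minus strand, the others plus). On the transcript strand, 105 of 1986 annotated transcripts of 110 to 150 bases (5.29%) hold either form of the motif. The longest run of A within each of these RNAs was 4 to 5 bases.

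RNU4ATAC, the U4atac gene, had 0 counts in each DMSO library and 144, 67 and 144 with dCeMM-3, which is at least 132-fold higher when the DMSO group is set to 3 counts. RNU11 had 0 counts in each DMSO library and 22, 7 and 24 with dCeMM-3, at least 19.7-fold higher by the same floor. RNU5A-1 had 2, 4 and 3 counts in DMSO and 485, 196 and 496 with dCeMM-3, or 0.116, 0.209 and 0.575 CPM against 31.9, 20.3 and 39.4 CPM (log2 fold change 7.10, SE 0.31, and 5.35 per spike-in). RNU5B-1 had 1 count over the 3 DMSO libraries and 110 over the 3 dCeMM-3 libraries, 122-fold higher (95% interval of the counts 21.5 to 4878.8). RNU4-2 had 2, 1 and 1 counts in DMSO and 85, 27 and 105 with dCeMM-3 (log2 fold change 5.76, and 4.08 per spike-in). In each of these 5 snRNAs the dCeMM-3 libraries lay above the DMSO libraries, and replicate 2 was the lowest of the 3. None of the 5 could pass the filter on its DMSO counts, so this order is a description and not a test. Intervals and floors cover counting error only.

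**Figure D3:**
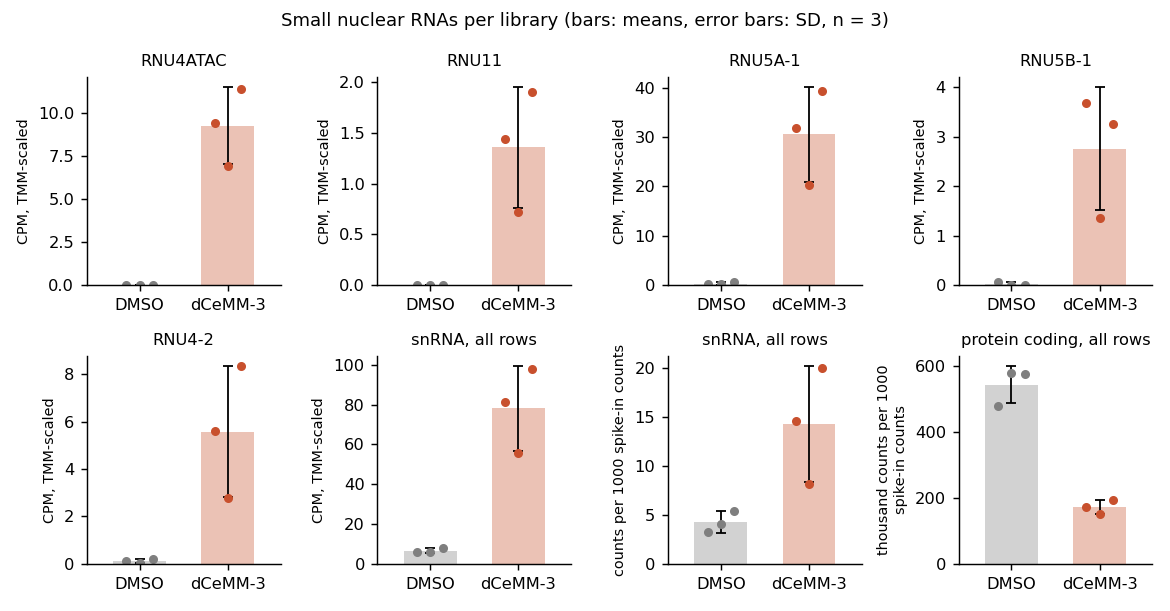
Levels of 5 snRNAs and of the summed snRNA class in TMM-scaled CPM, and of the snRNA and protein-coding classes per 1000 spike-in counts, with bars at the mean of 3 libraries, error bars of 1 SD and 1 point per library. The snRNA class is higher with dCeMM-3 on both scales, whereas protein-coding counts per spike-in are 0.317 times those of DMSO.

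Because only snRNAs high in one group reach the filter, the class was also summed over all of its annotated rows, detected or not. The sum was 5.957, 6.002 and 8.05 CPM in DMSO and 81.3, 55.6 and 97.7 CPM with dCeMM-3, 11.7 times as high, and it was 3.38 times as high per spike-in count (exact permutation p = 0.1 on both scales). Counts of protein-coding genes per spike-in were 0.317 times those of DMSO. Summed snoRNA was 2.05 times as high on the TMM scale and 0.582 times per spike-in (exact p = 0.2), and summed lincRNA 3.88 times and 1.10 times (exact p = 0.6). Of the nuclear lincRNAs, MALAT1 was at 619, 627 and 700 CPM in DMSO and 5844, 4344 and 5699 CPM with dCeMM-3 (log2 fold change 3.03, and 1.22 per spike-in). By means, MALAT1 alone supplied 5296 of the 7907 CPM of summed lincRNA with dCeMM-3, and 649 of 2039 CPM in DMSO. The lincRNA sums therefore mostly follow this gene with dCeMM-3. NEAT1 was at 59.7, 86.0 and 75.1 CPM in DMSO and 316, 280 and 324 CPM with dCeMM-3 (2.06, and 0.23 per spike-in, adjusted p = 0.295). The antisense RNA AC117382.2 rose by 5.93, and by 4.21 per spike-in. RNU1-1, RNU2-2P and RN7SK had 0 counts in all 6 libraries, and reads placed at several positions were not counted to genes. Of the host genes of snoRNAs 13 of 16 were higher and 2 lower (median 1.28), with SNHG8 at 1.95 and SNHG15 at -1.68, while per spike-in 0 were higher and 10 lower.

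Genes that make up the transcription machinery were lower in most of the lists drawn up for it, which are read against the 45.1% lower and 35.9% higher over all genes. MEPCE, the enzyme that caps 7SK RNA, was at 64.5, 71.0 and 58.8 CPM in DMSO and 4.54, 4.98 and 3.10 CPM with dCeMM-3 (log2 fold change -3.97, SE 0.12). HEXIM1, the inhibitor of P-TEFb, was at -0.29 (SE 0.12, adjusted p = 0.0293), and did not pass with the size factors of DESeq2 (-0.14, adjusted p = 0.279) or without dCeMM-3 replicate 2 (-0.16, adjusted p = 0.195), DMSO replicate 2, DMSO replicate 3 or dCeMM-3 replicate 1. Of 26 elongation factor genes 21 were lower and 2 higher (median -0.99, all 26 lower per spike-in). LEO1, IWS1 and PAF1, of which LEO1 and PAF1 belong to the PAF1 complex that travels with the polymerase, fell by 3.27, 3.00 and 2.79. TCEA1, which rescues stalled polymerase, was higher at 1.04 but at -0.75 per spike-in. Of 13 other transcription kinases and cyclins 9 were lower, among them CDK7 at -2.67, CCNT1 at -2.54 and CDK8 at -2.11, and CDK19 was higher at 0.63 with -1.17 per spike-in.

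The polymerase itself was mixed: of 11 RNA polymerase II subunit genes tested (12 listed) 6 were lower and 5 higher, and all 11 were lower per spike-in. POLR2A, the catalytic subunit, fell by 1.25 and POLR2B by 2.09, while POLR2J was at 1.00 with -0.81 per spike-in. Of 18 general transcription factor genes 13 were lower, led by GTF2E1 at -3.70, and 3 higher, among them TAF10 at 0.98 with -0.85 per spike-in. Of 23 genes of cleavage, polyadenylation and termination 18 were lower and 4 higher (median -1.54). PPP1R10 fell by 4.26, CSTF1 by 4.20 and CLP1 by 4.09, and the poly(A) polymerase gene PAPOLA was higher at 1.47 but at -0.33 per spike-in (adjusted p = 0.13). Of the 14 Integrator genes 12 were lower and 2 higher, and all 14 were lower per spike-in. INTS5 was at 39.1, 43.9 and 37.6 CPM in DMSO and 1.45, 1.35 and 1.27 CPM with dCeMM-3 (log2 fold change -4.89, SE 0.15). INTS11, the nuclease subunit, was at 0.90 with -0.94 per spike-in. Of 21 genes of SR splicing factors and their kinases 20 were lower and 0 higher (median -1.34), among them SON at -2.56, SRSF4 at -2.23 and SRSF3 at -1.98.

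DNA repair genes, the group for which CDK12 is best known, were mostly lower. Of 30 genes of homologous recombination and the damage response 26 (86.7%) fell and 4 were higher (median -0.94), and all 30 were lower per spike-in. Over all genes 45.1% were lower, and 83.7% per spike-in. The fall was not particular to repair genes: 86.7% of heat shock protein genes and 83.3% of mitotic genes were also lower. BRCA1 was at 53.7, 48.3 and 56.2 CPM in DMSO and 25.3, 23.9 and 32.3 CPM with dCeMM-3 (log2 fold change -0.94, SE 0.10). ATR, a kinase that signals replication stress, was at 96.1, 111 and 105 CPM in DMSO and 43.4, 36.7 and 48.8 CPM with dCeMM-3 (-1.27, SE 0.09). PALB2, which joins BRCA1 to BRCA2, fell by 3.03, the nuclease gene EXO1 by 2.61 and CLSPN by 2.27. ATM was higher relative to the other genes, at 1.10, and lower per spike-in, at -0.71. Of 17 Fanconi anaemia genes 12 were lower, among them ERCC4 at -2.67 and FANCF at -1.86, and 4 higher, among them ERCC1 at 0.92 with -0.93 per spike-in.

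In the cell cycle lists, 25 of 30 mitotic genes were lower and 3 higher (median -1.12), and all 30 were lower per spike-in. TTK, a spindle checkpoint kinase, was at 58.1, 45.8 and 53.7 CPM in DMSO and 5.59, 5.70 and 5.80 CPM with dCeMM-3 (log2 fold change -3.20). AURKA fell by 2.70 and PLK1 by 2.36, and PTTG1 was at 0.40 with -1.41 per spike-in. Of 30 genes of DNA replication and E2F targets 18 were lower and 11 higher, with MCM10 at -2.92, E2F3 at -2.86, CDC6 at -2.39 and TK1 at 1.16 (-0.65 per spike-in). Of 15 genes of cell cycle inhibitors, G1 cyclins and other cell cycle regulators 9 were lower and 6 higher. Over all genes 45.1% were lower and 35.9% higher. CDC25A fell by 3.82 and CCNE1 by 2.76, and CDKN2A was at 1.52 with -0.30 per spike-in (adjusted p = 0.16).

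Target genes of p53 did not move as one group. Of 26 listed, 14 (53.8%) were lower and 6 (23.1%) higher (median -0.52), and per spike-in 24 were lower and 1, PMAIP1, higher. Over all genes 45.1% were lower and 35.9% higher, and 83.7% were lower per spike-in. TIGAR fell by 3.61, AEN by 3.35 and the p53 phosphatase gene PPM1D by 2.51. CDKN1A, which encodes the cell cycle inhibitor p21 (chromosome 6, 36676460 to 36687339, plus strand), was at 19.7, 18.4 and 20.1 CPM in DMSO and 33.3, 35.7 and 34.5 CPM with dCeMM-3 (log2 fold change 0.84, SE 0.08), and lower per spike-in, at -0.99. PMAIP1, which encodes the cell death protein NOXA, was at 34.6, 23.3 and 27.4 CPM in DMSO and 145, 119 and 150 CPM with dCeMM-3 (2.28), and at 0.50 per spike-in (adjusted p = 0.0261). The latter did not pass when DMSO replicate 2 (0.42), dCeMM-3 replicate 1 (0.46) or dCeMM-3 replicate 3 (0.31) was left out. Of 15 BCL2 family genes 8 were lower and 4 higher, and MCL1, a short-lived survival factor, fell by 2.02.

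**Figure D4:**
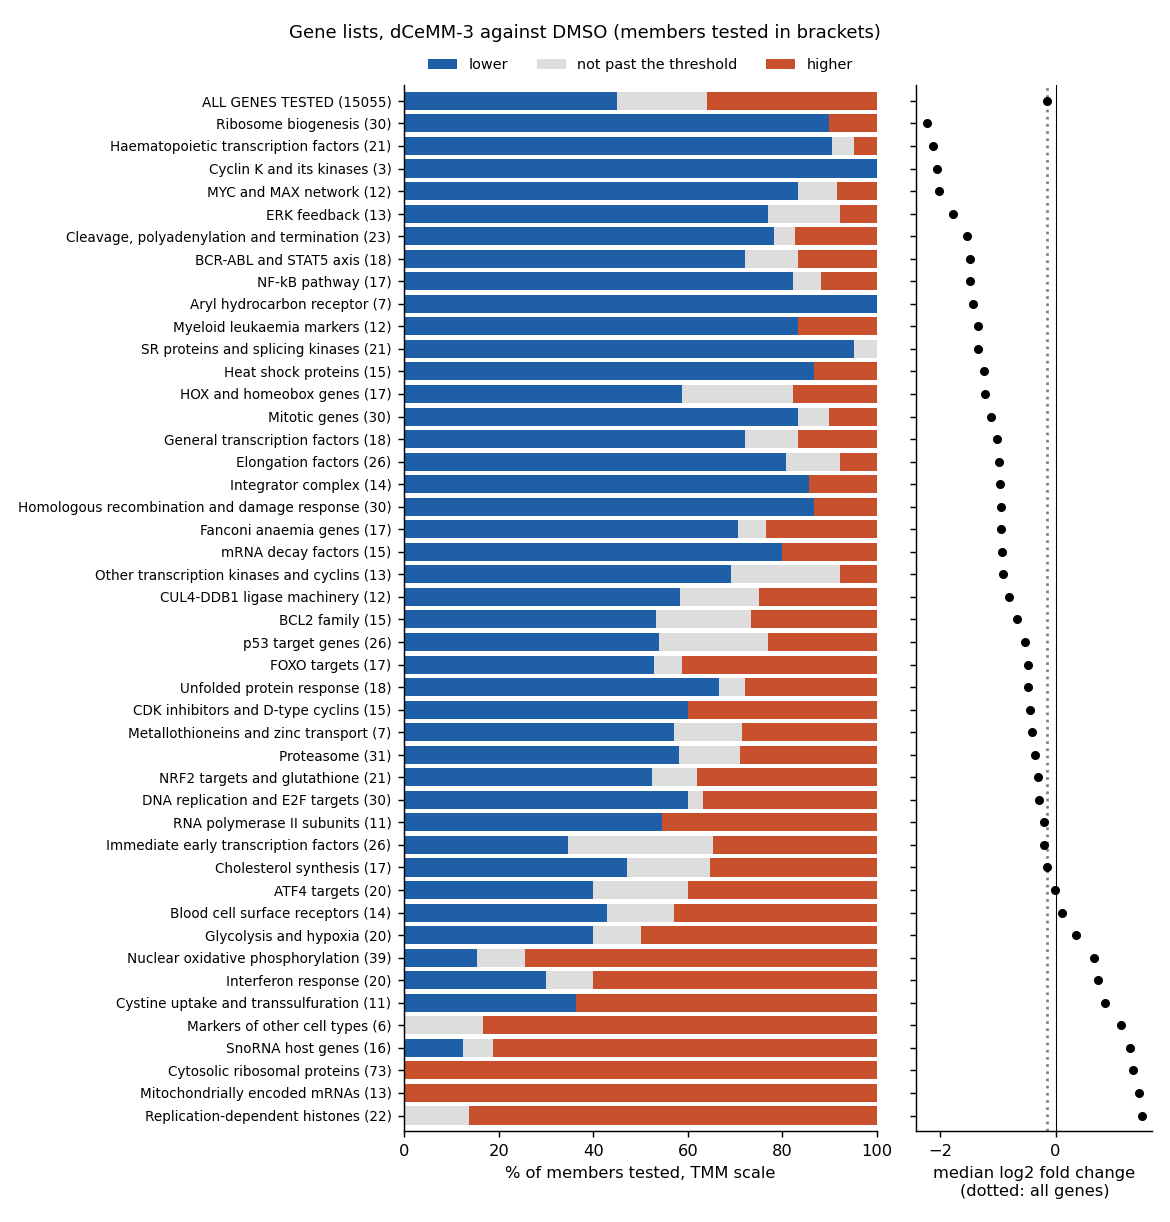
Left, the percentage of tested members of each gene list called lower (blue), higher (orange) or neither on the TMM scale, for the lists reported, with all genes tested in the top bar and the number tested in brackets. Right, the median log2 fold change of each list, with a dotted line at the median of all genes, -0.15. Ribosome biogenesis genes (median -2.23) stand at the low end and replication-dependent histones (median 1.49) at the high end.

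Most transcription factor genes of the blood lineage fell. Of 21 haematopoietic transcription factor genes tested (23 listed) 19 were lower and 1 higher (median -2.12), and all 21 were lower per spike-in. MYB, a factor that keeps immature blood cells proliferating, was at 867, 762 and 783 CPM in DMSO and 83.4, 92.2 and 97.7 CPM with dCeMM-3 (log2 fold change -3.14, SE 0.07). NFE2, a factor of erythroid and megakaryocytic cells, was at 24.6, 25.4 and 22.0 CPM in DMSO and 1.32, 2.28 and 0.397 CPM with dCeMM-3 (-4.26, SE 0.19). ZFPM1, the partner of GATA factors, fell by 3.78, GATA2 by 2.57 and RUNX1 by 2.49. Of the 12 myeloid leukaemia markers 10 were lower, and PTPRC, the pan-leukocyte gene that encodes CD45, was at 0.58 with -1.23 per spike-in. Of 14 blood cell surface receptor genes 6 were lower, among them TFRC, the transferrin receptor, at -1.71, and 6 higher, and per spike-in 11 were lower and 0 higher. Of 17 HOX and other homeobox genes 10 were lower and 3 higher (median -1.22), with DLX1 at -3.70, and HOXB9 was the only one higher per spike-in.

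Ribosome production split into a falling assembly arm and a relatively higher structural arm. Of 30 ribosome biogenesis genes 27 fell and 3 were higher (median -2.23), and all 30 were lower per spike-in. NOP16, a nucleolar assembly factor, was at 99.4, 95.5 and 107 CPM in DMSO and 3.88, 3.32 and 3.81 CPM with dCeMM-3 (log2 fold change -4.75, SE 0.11). POLR1B, a subunit of RNA polymerase I, was at -4.41 and BYSL at -4.14, and FBL was at 0.95 with -0.89 per spike-in. All 73 genes of cytosolic ribosomal proteins were higher on the TMM scale (median 1.35), whereas per spike-in 61 were lower and 0 higher (median -0.49). RPL13A was at 561, 540 and 522 CPM in DMSO and 1660, 1797 and 1605 CPM with dCeMM-3 (1.64, and -0.19 per spike-in, adjusted p = 0.35).

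Of the mitochondrially encoded mRNAs all 13 were higher relative to the other genes (median 1.45), and 8 were lower and 0 higher per spike-in (median -0.43). Their share of gene counts went from 4.62%, 4.93% and 5.89% in DMSO to 10.5%, 14.9% and 13.5% with dCeMM-3 (exact permutation p = 0.1). Of 39 nuclear genes of oxidative phosphorylation 29 were higher and 6 lower (3 lower with DESeq2 size factors), while all 39 were lower per spike-in. COX7C was at 1.32, with -0.50 per spike-in, which did not pass when DMSO replicate 2 (-0.47), DMSO replicate 3 (-0.47) or dCeMM-3 replicate 2 (-0.40) was left out. UQCRFS1 fell by 1.62.

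Stress and signalling genes were read by lists in the same way, beside 45.1% lower and 35.9% higher over all genes. Of 15 heat shock protein genes 13 were lower, with DNAJB1 at -3.25, BAG3 at -3.15 and HSPH1 at -3.09, and HSPB1 was at 0.89 with -0.95 per spike-in. Of 18 genes of the unfolded protein response 12 were lower and 5 higher (median -0.47). XBP1, the transcription factor of that response (chromosome 22, 28794555 to 28800597, minus strand), was at 1026, 930 and 972 CPM in DMSO and 45.8, 42.0 and 41.2 CPM with dCeMM-3 (log2 fold change -4.50, SE 0.07). EDEM1, a factor for degrading misfolded glycoproteins, was higher at 1.69, and at -0.13 per spike-in (adjusted p = 0.54, and 0.02 without dCeMM-3 replicate 2). Of 17 NF-kB pathway genes 14 were lower and 2 higher (median -1.48), among them NFKBIE at -3.62, IL1B at -3.32 and RELA at -2.56. All 7 tested genes of the aryl hydrocarbon receptor pathway fell, with AHRR at -1.95 and CYP1B1 at -1.93. Of 20 genes of glycolysis and hypoxia 10 were higher and 8 lower, and the glucose transporter gene SLC2A1 was at 100, 106 and 104 CPM in DMSO and 4.47, 4.35 and 4.13 CPM with dCeMM-3 (-4.58). Of 17 cholesterol synthesis genes 8 were lower and 6 higher, with SREBF2 at 1.48 (-0.35 per spike-in, adjusted p = 0.09).

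Immediate early genes were evenly divided, 9 higher and 9 lower of 26 tested, and 3 higher and 21 lower per spike-in. All genes together were 35.9% higher and 45.1% lower. The 3 that were higher on both scales were ARC, IER3 (4.30, and 2.56 per spike-in) and RASD1 (4.01, and 2.28 per spike-in), the latter pair at under 5 CPM with dCeMM-3. FOS was at 10.9, 14.4 and 13.8 CPM in DMSO and 24.1, 22.7 and 25.3 CPM with dCeMM-3 (0.90, SE 0.11), and lower per spike-in, at -0.93. FOSL1 was at -3.54 and FOSL2 at -2.34.

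CXCL10, a chemokine gene induced by interferon, was the largest rise among the interferon response genes, a list of 21 (20 tested) that was added after its value had been seen. It was at 46.3, 43.7 and 48.7 CPM in DMSO and 266, 253 and 263 CPM with dCeMM-3 (log2 fold change 2.51, SE 0.07, and 0.68 per spike-in). Of the list 12 were higher and 6 lower (median 0.74), and per spike-in CXCL10 was the 1 higher gene and 17 were lower. IFIT1, an antiviral gene, fell by 2.52 and SOCS1 by 2.42. The upstream end of its RefSeq promoter window is shown because CXCL10 was also higher than with dCeMM-2 and THZ531. It covers chr4:76023668-76023747 (GRCh38.p14, minus strand), bases -250 to -171 before the gene start, with the 1 match of GAAA, any 2 bases and GAAA again, the core letters of an interferon-stimulated response element, in capitals.
CXCL10: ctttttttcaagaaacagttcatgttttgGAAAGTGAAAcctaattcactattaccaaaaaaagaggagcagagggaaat
Searched on both strands, this motif occurs in 3.57% of 35116 RefSeq promoter windows of the same kind. The match is a description of the letters in this window.

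Gene structure was compared within each library, over protein-coding genes, as the median log2 CPM of one class minus that of another. Genes with 2 or 3 exons in their longest annotated form stood 1.24, 1.24 and 1.21 below genes with more exons in DMSO and 1.86, 1.93 and 1.86 below them with dCeMM-3. The groups did not overlap and the mean difference was -0.66 (exact permutation p = 0.1), and it was -0.68 among genes of at least 5 CPM in DMSO. Of 378 genes with 2 exons 68.8% were called lower (median -1.36), of 592 with 3 exons 62.5% (median -1.07), and in the classes with more exons 49.4% to 54.0%. Of the 219 genes with 1 exon 46.6% were called lower, and their median of -0.32 was close to the -0.38 of all protein-coding genes. They stood 2.22 ± 0.04 below genes with more exons in DMSO and 1.96 ± 0.01 below them with dCeMM-3 (SD, n = 3, exact permutation p = 0.1), a change of 0.25 upwards. This contrast was not repeated among genes of at least 5 CPM in DMSO. Genes spanning at least 100 kb stood 0.56 ± 0.05 above genes under 20 kb in DMSO and 0.76 ± 0.07 above them with dCeMM-3 (SD, n = 3, exact p = 0.1), but with at least 5 CPM in DMSO the change was 0.03 (exact p = 0.9). By span, the share called lower was 41.1% under 5 kb, 56.4% from 100 to 200 kb and 33.6% over 500 kb, so it did not rise steadily with length.

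dCeMM-3 was set against dCeMM-2, given at the same multiple of its own EC50, and against THZ531, whose dose of 600 nM is not matched, 2 pairs in all. Relative to dCeMM-2, 2480 genes (16.5%) were higher and 4008 (26.6%) lower with dCeMM-3, and relative to THZ531, 2874 (19.1%) higher and 3863 (25.7%) lower. The split against dCeMM-2 depended on the scaling: with the size factors of DESeq2 it was 3363 higher and 3535 lower. Against THZ531 those size factors gave 2892 higher and 3832 lower. These comparisons share the dCeMM-3 libraries with each other and with the one against DMSO. Intervals below are 95% intervals of the log2 difference, with edgeR adjusted p taken over all genes of a pair.

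MYC and the ERK phosphatase genes were among the largest differences between the compounds. MYC was at 17.04 CPM with dCeMM-3, 475 ± 25.6 with dCeMM-2 and 281 ± 11.7 with THZ531 (SD, n = 3), a log2 difference of -4.80 (-4.97 to -4.64) from dCeMM-2 and -4.04 (-4.21 to -3.88) from THZ531. DUSP6 was at 10.1 CPM, against 250.5 ± 21.0 and 117 ± 11.6 CPM, a difference of -4.65 (-4.85 to -4.45) from dCeMM-2 and -3.55 (-3.75 to -3.35) from THZ531. DUSP5 differed from dCeMM-2 by -5.12 (-5.57 to -4.67), CXCR4, a chemokine receptor gene, by -4.60 (-5.18 to -4.03) and MSX2 by -4.44 (-5.09 to -3.79, with -5.05 without dCeMM-3 replicate 3). OSM was at 0.263 CPM against 4.77 with dCeMM-2, a difference of -4.13 (-4.77 to -3.50). For all of these dCeMM-3 was the lowest of the 4 groups.

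CDKN1A showed another order: it was at 19.4 ± 0.919 CPM in DMSO, 34.5 ± 1.19 with dCeMM-3, 329 ± 13.9 with dCeMM-2 and 504 ± 19.6 with THZ531. dCeMM-3 differed by -3.26 (-3.42 to -3.09) from dCeMM-2 and by -3.87 (-4.04 to -3.71) from THZ531. HEXIM1 was at 28.8 CPM in DMSO and 23.0 with dCeMM-3, but at 58.4 with dCeMM-2 and 80.4 with THZ531 (differences of -1.34, -1.59 to -1.09, and -1.79, -2.04 to -1.54). FOS was at 24.1 CPM with dCeMM-3, 75.3 with dCeMM-2 and 85.2 with THZ531, a difference of -1.65 (-1.84 to -1.45) from dCeMM-2. ID1, an inhibitor of differentiation factors, was at 1.92 CPM with dCeMM-3 and 26.2 with THZ531 (-3.78, -4.12 to -3.44). The p53 target EDA2R had 1 count over the 3 dCeMM-3 libraries and was at 5.86 CPM with THZ531.

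Cyclin K transcripts also set the compounds apart. CCNK was at 122 ± 3.51 CPM in DMSO, 51.0 ± 2.82 with dCeMM-3, 181 ± 1.77 with dCeMM-2 and 96.7 ± 1.91 with THZ531. The difference from dCeMM-2 was -1.83 (-1.97 to -1.68, adjusted p = 1.34e-24). CDK13 was at 21.0 CPM against 49.2 with dCeMM-2 (-1.23, -1.41 to -1.05). CDK12 was at 43.0 ± 5.06 CPM against 43.5 ± 1.44, a difference of -0.01 whose interval of -0.18 to 0.15 holds 0 (adjusted p = 0.903), and against 68.9 with THZ531 (-0.68, -0.84 to -0.52).

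Some genes were higher with dCeMM-3 than with dCeMM-2, THZ531 or both, and SLC7A11, RNU4ATAC and RNU5A-1 are given beside them. CXCL10 was at 261 ± 7.20 CPM with dCeMM-3, 78.4 ± 0.376 with dCeMM-2 and 38.8 ± 2.10 with THZ531 (1.73, 1.59 to 1.88, and 2.75, 2.59 to 2.90). DEPDC1, a mitotic gene, was at 44.8 CPM with dCeMM-3 and 38.2 in DMSO, but at 10.7 with dCeMM-2 (2.09, 1.82 to 2.36) and 12.05 with THZ531 (1.90, 1.64 to 2.16). TUBG1, which encodes gamma-tubulin, was at 19.0 CPM against 5.32 with dCeMM-2 and 4.38 with THZ531. SLCO4C1, a transporter gene, was higher than with dCeMM-2 by 1.77 and FAF2 by 1.39. SELPLG, a selectin ligand gene, was higher than with THZ531 by 1.85 and LPCAT4, an enzyme of phospholipid remodelling, by 1.74. SLC7A11 was at 153 ± 18.2 CPM, 106 ± 11.3 with dCeMM-2 and 177 ± 2.39 with THZ531, differences of 0.53 (0.36 to 0.71) and -0.21 (-0.38 to -0.04). RNU4ATAC was at 9.29 ± 2.25 CPM, 5.48 with dCeMM-2 and 5.87 with THZ531, and its difference from dCeMM-2 was 0.81 (0.37 to 1.24, adjusted p = 0.000922). RNU5A-1 was at 30.5 CPM against 28.2 with dCeMM-2, an interval of -0.18 to 0.45 that holds 0.

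**Figure D5:**
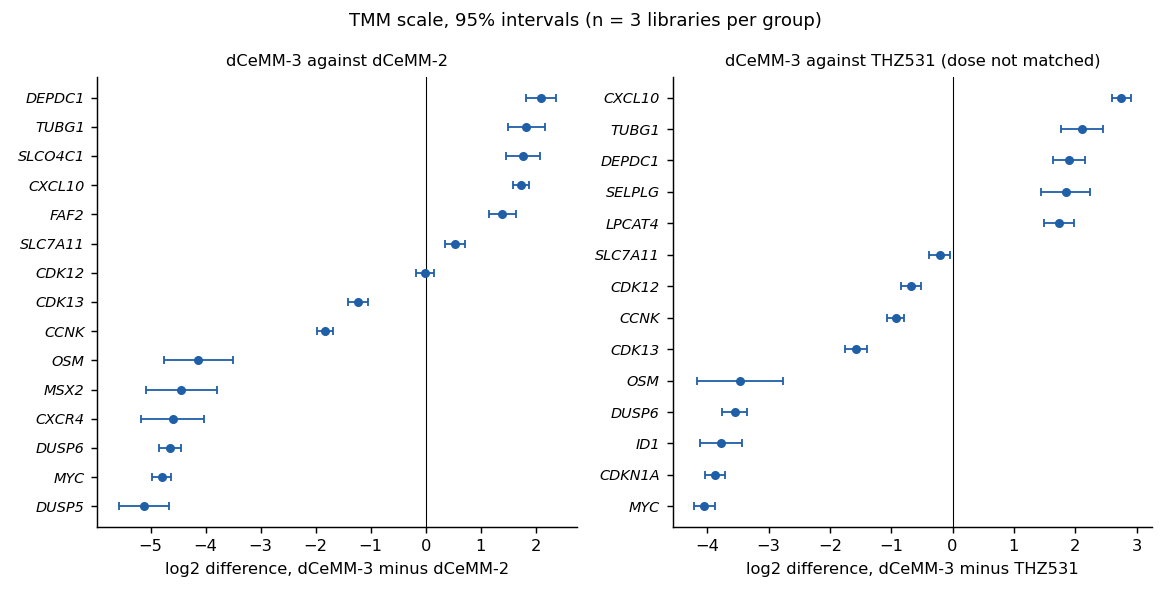
Log2 differences of dCeMM-3 minus dCeMM-2 (left) and minus THZ531 (right) on the TMM scale with 95% intervals, n = 3 libraries per group, for the genes with the largest differences and for CCNK, CDK12, CDK13, OSM and SLC7A11 (EDA2R, with 1 count under dCeMM-3, is left out). MYC lies at -4.80 and -4.04 and CXCL10 at 1.73 and 2.75, and the interval of CDK12 on the left spans 0.

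By list, 25 of 26 immediate early genes were lower than with dCeMM-2 and 0 higher (median difference -1.79, against -0.02 over all genes), and 25 were lower than with THZ531 (median -1.49, against -0.03). Of 26 p53 target genes 19 were lower and 2 higher than with dCeMM-2 (median -1.20), and 22 lower and 1 higher than with THZ531 (median -1.53). Of 21 SR protein and splicing kinase genes 17 were lower than with each compound and 0 higher. Of 26 elongation factor genes 17 were lower than with dCeMM-2 and 2 higher, and of 30 ribosome biogenesis genes 22 lower and 1 higher. Of 30 homologous recombination genes 10 were higher than with dCeMM-2, 4 were lower and 16 did not pass the test (median 0.13), where 16.5% of all genes were higher and 26.6% lower. BRCA1 differed by 0.34 (0.10 to 0.58) and ATR by 0.43 (0.22 to 0.63).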

How the data were processed

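RNA of KBM7 cells was sequenced in 18 libraries, of which 12 (DMSO, dCeMM-3, dCeMM-2 and THZ531, 3 each) enter comparisons and all enter the fits. Per the labels' protocols, RNA was extracted with a column kit, a mix of ERCC and SIRV RNAs was added, poly(A) RNA was enriched and libraries were made with the CORALL total RNA kit. The deposited values are raw counts of reads per gene, with no normalization. HTSeq 0.11.2, STAR 2.5.2b, Trimmomatic 0.32 and Picard are listed in the submitters' processing notes without roles, beside the build GRCh38.p7; the strand setting and any use of molecular identifiers are not given in the sources used here, so reads of genes that lie over each other on the 2 strands cannot be separated, as for 74 of the 190 genes named by rule (CCNK, MEPCE, DUSP6, SLC7A11, SLC2A1, NOP16, MYB and BRCA1 among them). Reads placed at several positions were not counted to genes. The 5 summary counts that name no gene stayed out of library sizes: 4.43% to 6.12% of reads lay in no gene, 1.08% to 1.47% were ambiguous and 27.7% to 44.3% had several positions in the 6 libraries. Of 58051 identifiers 57447 matched GENCODE 29, which gave names, types and coordinates (GRCh38).

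Members, gene lists and tests were chosen with earlier results of these data known. Genes passed filterByExpr by group (15055 of 58051), and edgeR 4.0.16 (R 4.3.3) fitted a robust quasi-likelihood model to all 18 libraries with 1 coefficient per group and 12 residual degrees of freedom, once with TMM factors and once with library sizes set by ERCC plus SIRV counts. Adjusted p-values are Benjamini-Hochberg over all genes tested, with a threshold of 0.05, and SE is that of the log2 fold change. The model was also run on simulated data in which a small part of the genes changed, evenly up and down. That run does not show how the TMM scale behaves where most genes change. CPM are TMM-scaled, and errors are SD over 3 libraries. Single values per library were compared by exact two-sided permutation tests, with a smallest possible p of 0.1. Gene structure used log2(CPM + 0.5). Named genes were the 10 largest rises (also higher per spike-in) and falls among protein-coding genes, and the 3 largest of other types, that were called, had groups that do not overlap and at least 5 CPM in the higher group; up to 3 such members per list and 1 against the direction of the list; 13 genes given in every case; and the 5 largest differences in each direction between compounds. There were 44 lists with 890 entries, and 2 added later. Lists were counted, not tested. IER3, RASD1, the snRNAs other than RNU4ATAC and RNU5A-1, MALAT1 and NEAT1 were named after their values were seen. Alternatives covered scaling, filtering, DESeq2 1.42.0, the 6 libraries alone, a replicate block, mitochondrial genes left out and each library left out. Protein sequences and promoters of other genes were not used here, and some items of the lists are not reported here.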

Additional observations from a re-analysis of the deposited data

Results flagged for a closer look

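Reads placed at several positions, which enter no gene count, made up 29.5%, 27.7% and 27.7% of the reads in the DMSO files and 38.6%, 40.0% and 44.3% in the dCeMM-3 files. The mean with dCeMM-3 was 41.0%, above every DMSO library (exact permutation p = 0.1, the smallest possible). This signal lies outside the counts that the comparisons use, and the genes of origin of these reads were not analysed here.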

How the results depend on the processing

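On the spike-in scale, 168 genes were higher and 12608 lower than DMSO, against 5409 and 6793 with TMM. Against dCeMM-2 the spike-in scale called 3426 genes, 651 of them higher, and against THZ531 3069, of which 1015 were higher and 2054 lower. The long minus short gene change was 0.0277 among genes of at least 5 CPM in DMSO, against 0.194. Leaving out 1 library gave 11719 to 12028 calls on the TMM scale, 12071 to 12811 on the spike-in scale with 116 to 204 higher, 5797 to 6284 against dCeMM-2 and 5960 to 6510 against THZ531. The spike-in share ratio then ran from 2.83 to 3.23. DESeq2 size factors, DESeq2, no filter, the 6 libraries alone, ERCC or SIRV counts alone and leaving out mitochondrial genes each kept the counts of calls they were run for within 1.5 times.

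Same-numbered DMSO and dCeMM-3 libraries did not deviate together (r of -0.0014, 0.0748 and 0.0118 across genes), so the numbers were not taken as pairs. A replicate block gave 12179 calls on the TMM scale and 12713 on the spike-in scale, 6493 against dCeMM-2 and 6722 against THZ531, and changed no call of a named gene.

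Signs changed only for genes that were not called. DDB1 was at 0.0726 with DESeq2 size factors, 0.0723 with DESeq2 and 0.0884 with the 6 libraries alone. On the spike-in scale MT-CYB was at 0.00954 with SIRV counts only and ran from -0.183 to 0.158 with 1 library left out (above 0 without DMSO replicate 2, DMSO replicate 3 or dCeMM-3 replicate 1). RPS28 ran from -0.489 to 0.0379 (without DMSO replicate 2) and EDEM1 from -0.288 to 0.0225 (without dCeMM-3 replicate 2). P2RY14 was at -9.29 without dCeMM-3 replicate 1, with no count left in that group. DMSO replicate 3 held the fewest counts and limits precision at low levels.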

Other observations

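The noncoding RNA of RNase MRP, RMRP, differed within the dCeMM-3 group: it had 20, 13 and 8 counts in DMSO, 9 and 6 counts in dCeMM-3 replicates 1 and 2, and 102 in replicate 3. The comparison did not pass the threshold (log2 fold change 1.64, SE 1.09, edgeR adjusted p = 0.177). Another entry named RMRP lies over this one on the same strand, so these counts may be only a part of its reads. The lincRNA Z93241.1, whose annotation overlaps the RNU12 gene of the minor spliceosome, had 2, 1 and 0 counts in DMSO and 36, 28 and 38 with dCeMM-3, while RNU12 itself had 0 counts in all 6 libraries. Ambiguous reads were not counted to genes, so 0 counts do not show that RNU12 RNA was absent. RNU6ATAC had 0, 2 and 0 counts in DMSO and 4, 4 and 3 with dCeMM-3. These RNAs were chosen after their values were seen.

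Of 15 mRNA decay genes 12 were lower and 3 higher: TOB2 fell by 3.33, ZFP36L2 by 2.99 and CNOT8 by 2.29, and ZFP36 was at 1.15 with -0.70 per spike-in. Of 7 metallothionein and zinc transport genes tested 4 were lower and 2 higher: MT1X fell by 1.42, the zinc exporter gene SLC30A1 by 1.96 and their regulator MTF1 by 3.24, and MT2A was at 0.83 with -0.99 per spike-in. Among 17 FOXO target genes 9 were lower, with ARRDC2 at -2.60 and CITED2 at -2.45, and 7 higher, with GADD45B at 2.23 and 0.40 per spike-in (edgeR adjusted p = 0.10). These lists stand beside 45.1% lower and 35.9% higher over all genes.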
